A study of Mus musculus with 6 samples.

Results

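The lysyl oxidases are a family of copper-dependent amine oxidases, and the mouse genes for them are Lox, Loxl1, Loxl2, Loxl3 and Loxl4. These 5 genes were taken by their symbols from a table of 29955 genes, and all 5 had a row of their own. That rule used no expression values, but the family was chosen with earlier results of these data known. The name Lox is unrelated to the loxP recombination sites used to make the knockout. RNA-seq was carried out on mouse embryonic fibroblasts (MEFs) at passage 3 in 2 groups of 3 libraries, labelled Rnf40+/+ and Rnf40-/-. RNF40 is a subunit of the ubiquitin ligase that monoubiquitinates histone H2B, and the comparison asks how its loss alters mRNA levels. According to the study's methods, MEFs were made from embryos in which both Rnf40 alleles had loxP-flanked exons and the Rosa26 locus, active in all tissues, drove CreERT2, a Cre recombinase switched on by tamoxifen. The Rnf40-/- MEFs received 250 nM 4-hydroxytamoxifen (4-OHT) for 5 days and were then grown for 3 days without it. No other source of MEFs is described, and whether the Rnf40+/+ cells of the RNA-seq were also given 4-OHT is not stated in the sources used here, so loss of Rnf40 and the treatment cannot be told apart. They also do not say whether the 3 libraries of a group came from separate embryos, so p values measure the spread between libraries, which may be technical.

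Lysyl oxidases are secreted enzymes that oxidize the side chains of lysine residues in collagen and elastin to reactive aldehydes, which then condense into covalent cross-links. These cross-links give collagen fibrils their tensile strength and elastic fibers their recoil. Every member has a conserved catalytic domain with a copper site and a cofactor made from its own lysine and tyrosine residues. LOX and LOXL1 are made with a propeptide that is cleaved off outside the cell, whereas LOXL2, LOXL3 and LOXL4 carry scavenger receptor cysteine-rich domains in front of the catalytic domain. Fibroblasts are a main source of these enzymes, and the MEFs studied here are cells that build a collagen-rich matrix in culture.

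The libraries held between 17053436 and 26344170 reads on genes in Rnf40+/+ and between 18115481 and 20495627 in Rnf40-/- MEFs. Values are normalized counts, that is, the number of reads of a gene divided by the size factor of its library, and 3 reads, taken as the limit of detection, came to between 2.40 and 3.58 normalized counts. Rnf40 itself had 1278, 1195 and 1096 normalized counts in Rnf40+/+ and 439, 519 and 487 in Rnf40-/- MEFs. Within Rnf40+/+, replicate 3 stood apart from the other libraries, with a chi-square per gene of 25.9 and 28.8 against them, compared with 8.35 between replicates 1 and 2. Where leaving it out ended a call or moved a value by more than 1.5 times, the value without it is given too. Fibroblast markers (Vim, Pdgfra, Pdgfrb, Thy1, Dcn, Lum and Fap) were present at a summed level of 122998 to 132513 normalized counts in Rnf40+/+ and of 88588 to 97554 in Rnf40-/- libraries. Vim led this sum, with a mean of 87467 over all libraries. All 7 macrophage markers had reads too, 6 of them enough to be tested, and summed to 4974 to 9053 and 3198 to 3507, led by Lyz2. The 5 chondrocyte markers summed to 1231 to 1658 and 500 to 580, led by Col2a1 with a mean of 699 over all libraries. Only 2 of these 5 had enough reads to be tested. The 5 skeletal muscle markers summed to 118 to 434 and 29.2 to 46.3, led by Des with a mean of 130 over all libraries. Of these 5, 3 had no more than 3 reads in any library, with 1 of them at 0 throughout. The 5 endothelial markers, 4 of them with enough reads to be tested, summed to 51.0 to 146 and 179 to 283. The 5 epithelial markers, 2 of them with enough reads, summed to 26.5 to 97.9 and 30.2 to 53.0. Whether cells of these other types were present, and their part in the results below, was not tested.

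Of the 5 lysyl oxidase genes, Loxl3, Loxl1 and Loxl2 were lower and Loxl4 was higher in Rnf40-/- MEFs, while Lox, the most abundant member, did not pass the test. A gene was called when its adjusted p was under 0.05 in limma, fitted to log2(normalized count + 1) of 16378 genes with Benjamini-Hochberg adjustment over all of them. By this rule 47.4% of all genes tested were called, 24.1% as lower and 23.3% as higher in Rnf40-/- MEFs. A share of this size means that being called is common in these data, and the sizes of the changes separate the members more than the calls do. The libraries of the 2 genotypes did not overlap for any of the 5 genes, which was also the case for 56.5% of all genes tested. All 5 genes passed the filter on low counts, with at least 990 reads in every library. As these are bulk cultures, fewer cells of a type and less RNA per cell cannot be told apart. At this sample size the smallest p that exact permutation of the genotypes can give for a single value is 0.1.

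**Figure D1:**
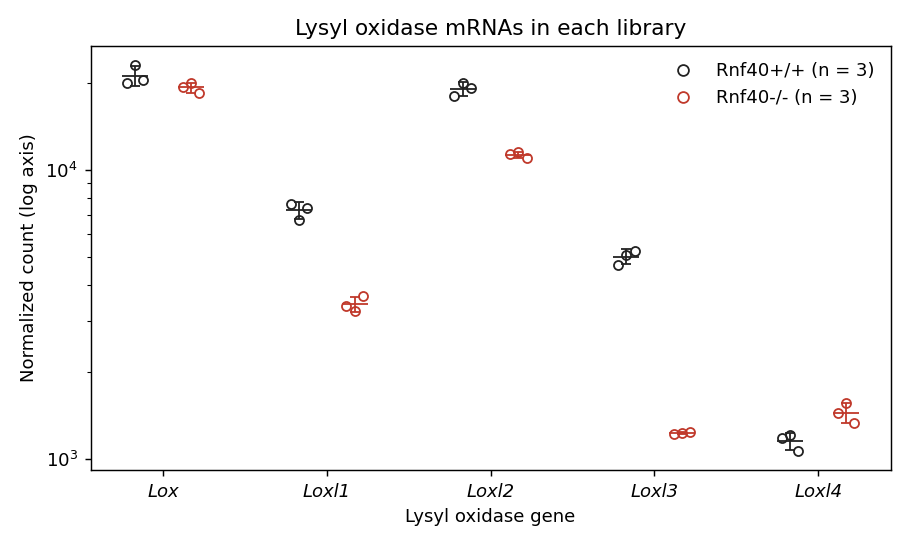
Normalized counts (log axis) of the 5 lysyl oxidase genes in each of the 3 Rnf40+/+ (black) and 3 Rnf40-/- (red) libraries, with the mean and SD of each genotype as bars. The red points lie far below the black points for Loxl3, below them for Loxl1 and Loxl2, close under them for Lox and above them for Loxl4.

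Loxl3 showed the largest change of the family. Its enzyme carries scavenger receptor domains and is needed for collagen cross-linking in the palate and spine. Loxl3 (ENSMUSG00000000693) was annotated on chromosome 6 (mm9, 82984167 to 83002556, plus strand), and its longest annotated coding transcript has 14 exons and 4098 nucleotides. It had 4687, 5087 and 5251 normalized counts in Rnf40+/+ and 1214, 1224 and 1236 in Rnf40-/- MEFs. The 3 Rnf40-/- libraries were nearly alike, and each held less than any Rnf40+/+ library by a wide margin. The mean fell from 5008 ± 290.0 to 1225 ± 10.8 (SD, n = 3 each), to 24.5% of the Rnf40+/+ level, a log2 fold change of -2.03 (standard error, SE, 0.06, limma adjusted p = 2.41e-09). Only 182 of the 16378 genes tested, or 1.11%, fell further. Leaving out any 1 library gave values between -2.08 and -1.99.

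The deposited table also holds a row named Lor2, which RefSeq lists as an older name of Loxl3. It was noticed after the values were seen, because it was the gene whose profile over the libraries was closest to that of Loxl3. Lor2 had 1806, 1917 and 1889 normalized counts in Rnf40+/+ and 466, 481 and 477 in Rnf40-/- MEFs, a log2 fold change of -1.98 (SE 0.07, limma adjusted p = 4.27e-09). Both rows thus fell by nearly the same proportion. If the 2 rows hold different reads of the same gene, Lor2 made up 27.2% ± 0.689 of their sum in Rnf40+/+ and 27.9% ± 0.253 in Rnf40-/- MEFs (SD, n = 3 each), and the log2 fold change of the sum was -2.02 (SE 0.06, limma adjusted p = 1.60e-09). How the authors' counting divided reads between the rows is not given in the sources used here, so the level of Loxl3 below may be too low, while its fold change hardly depended on this. Loxl3 also shares 1297 nucleotides with Htra2, a gene for a mitochondrial protease on the opposite strand. Htra2 had between 1066 and 1155 normalized counts in Rnf40+/+ and between 1022 and 1060 in Rnf40-/- MEFs, and its log2 fold change of -0.10 did not pass the test (limma adjusted p = 0.264).

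Loxl1 came next to Loxl3 in the size of its fall. LOXL1 is the member most closely tied to elastic fibers, where it is brought to elastin by fibulin-5. The gene (ENSMUSG00000032334) was annotated on chromosome 9 (mm9, 58135530 to 58161019, minus strand), with 7 exons in its longest coding transcript. Loxl1 had 7629, 6691 and 7387 normalized counts in Rnf40+/+ and 3383, 3257 and 3646 in Rnf40-/- MEFs. The highest Rnf40-/- library was well below the lowest Rnf40+/+ library. The means were 7235 ± 487 and 3429 ± 199 (SD, n = 3 each), which left 47.4% and gave a log2 fold change of -1.08 (SE 0.07, limma adjusted p = 3.09e-07). A larger fall was seen in 5.36% of all genes tested. With each library left out, the value stayed between -1.13 and -1.04. Loxl1 and Loxl3 were also the members below the limits that the study set for downregulated genes (mean above 15, p value under 0.05 and log2 fold change under -1), which 5.70% of all genes tested passed here.

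Loxl2 fell as well, but by less. LOXL2 is known for cross-linking type IV collagen of basement membranes and, inside the cell, for its association with the transcription factor SNAI1. The gene (ENSMUSG00000034205) was annotated on chromosome 14 (mm9, 70008978 to 70095640, plus strand), with 14 exons in its longest coding transcript, and the non-coding gene Gm16867 is annotated across it on the opposite strand. The kit used for library preparation keeps the strand, but the strand setting of the counting is not given in the sources used here. Loxl2 had 18020, 20027 and 19141 normalized counts in Rnf40+/+ and 11344, 11530 and 10978 in Rnf40-/- MEFs. The genotypes were clearly apart, with means of 19063 ± 1006 and 11284 ± 281 (SD, n = 3 each). Thus 59.2% of the level was left, a log2 fold change of -0.76 (SE 0.07, limma adjusted p = 3.13e-06), and 10.2% of all genes tested fell further. With each library left out, the value stayed between -0.80 and -0.72.

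Lox, the founding member of the family and a main cross-linking enzyme of fibrillar collagen and elastin, did not pass the test. The gene (ENSMUSG00000024529) was annotated on chromosome 18 (mm9, 52675723 to 52689521, minus strand), with 8 exons in its longest coding transcript. Lox had 20037, 23005 and 20473 normalized counts in Rnf40+/+ and 19288, 20011 and 18499 in Rnf40-/- MEFs. The highest Rnf40-/- library lay just under the lowest Rnf40+/+ library. The means were 21172 ± 1603 and 19266 ± 756 (SD, n = 3 each), so that 91.0% was left. The log2 fold change was -0.13 (SE 0.08, limma adjusted p = 0.165) with a 95% interval from -0.30 to 0.03, which spans a small fall as well as no change. The whole interval lies above the log2 fold changes of Loxl1, Loxl2 and Loxl3. Without Rnf40+/+ replicate 2, the library with the most Lox, the value was -0.07 (limma adjusted p = 0.389), and without Rnf40+/+ replicate 1 it was -0.17 (limma adjusted p = 0.114).

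In the plot of fold change against abundance, the largest fall of the family belonged to Loxl3, a member of lower abundance than Lox, Loxl1 and Loxl2.

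**Figure D2:**
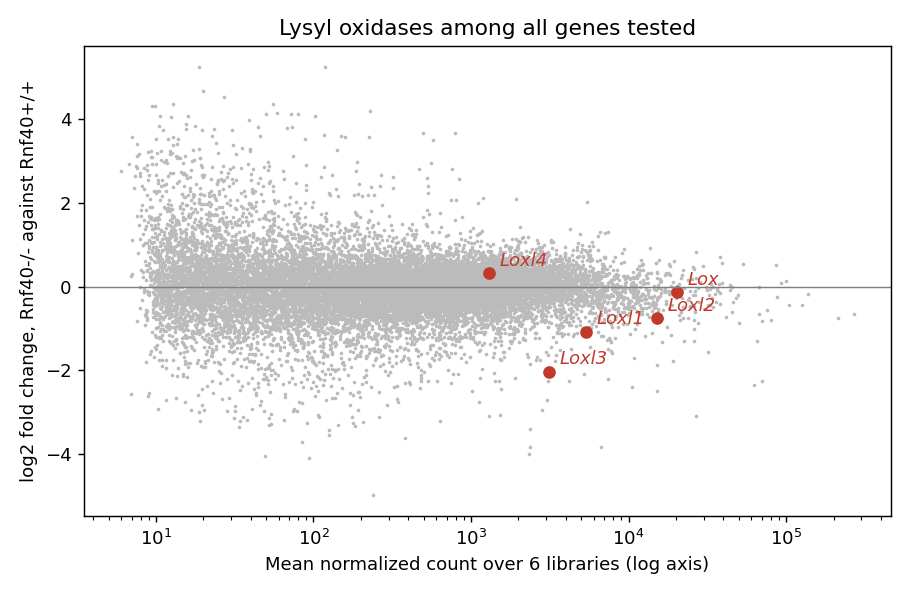
Log2 fold change between Rnf40-/- and Rnf40+/+ MEFs against the mean normalized count over 6 libraries (log axis) for each of the 16378 genes tested (grey) and the 5 lysyl oxidase genes (red). Loxl3 is near the lower edge of the cloud at -2.03, Loxl1 and Loxl2 lie below its middle, Lox is close to 0 at the highest mean of the family and Loxl4 is above 0.

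Loxl4 was the member that rose. LOXL4, like LOXL2 and LOXL3, is an enzyme with scavenger receptor domains. The gene (ENSMUSG00000025185) was annotated on chromosome 19 (mm9, 42668472 to 42687303, minus strand), with 15 exons in its longest coding transcript. Loxl4 had 1182, 1207 and 1064 normalized counts in Rnf40+/+ and 1436, 1559 and 1328 in Rnf40-/- MEFs. All 3 Rnf40-/- libraries were above all 3 Rnf40+/+ libraries, and the gap between the groups was similar in size to the spread within Rnf40-/-. The means were 1151 ± 76.8 and 1441 ± 115 (SD, n = 3 each), a rise to 125% with a log2 fold change of 0.32 (SE 0.08, limma adjusted p = 0.00596). This is a modest rise, as 24.7% of all genes tested rose further. It stayed past the threshold with each library left out, at values between 0.26 and 0.38, with the largest adjusted p of 0.038 without Rnf40-/- replicate 2.

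A RefSeq promoter sequence (GRCm38.p6), from 250 bases before to 50 bases after the annotated start, was matched to 1 of the 5 members, Loxl4. It is shown because no promoter was matched to the other members, and its part in the rise of Loxl4 was not tested. It spans chr19:42612757-42613056 in that build and is printed 5′ to 3′ on the minus strand, with matches to the GC box in capitals.
Loxl4 promoter: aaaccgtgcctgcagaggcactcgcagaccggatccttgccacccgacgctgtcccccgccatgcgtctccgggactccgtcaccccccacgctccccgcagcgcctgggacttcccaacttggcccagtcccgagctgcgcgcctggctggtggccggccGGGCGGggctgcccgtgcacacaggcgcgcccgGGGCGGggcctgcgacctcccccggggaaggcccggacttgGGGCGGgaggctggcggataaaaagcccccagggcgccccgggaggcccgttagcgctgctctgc
This promoter was rich in G and C, with 75% of its bases against a median of 52.7% over 32817 promoters of the same length. It held 32 CpG dinucleotides, and 9.53% of all promoters held as many. On either strand it had 3 matches to the GC box (GGGCGG), bound by SP factors, which 35.6% of all promoters held at least once. It had 1 match to the SMAD element (CAGAC), which was present in 49.6% of promoters. The window held no match to the core of the hypoxia response element (ACGTG, in 19.6% of promoters), the AP-1 site (TGANTCA, in 7.81%), the E-box (CANNTG, in 72.3%) or the TEAD site (GGAATG, in 14.7%). A hypoxia core can lie inside an E-box. These are matches of letters and not measured binding sites.

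Per kilobase of the longest annotated coding transcript, the level of the genes in Rnf40+/+ MEFs was highest for Lox (4738 ± 359 normalized counts per kilobase, SD, n = 3). Lox was followed by Loxl2 (3681 ± 194), Loxl1 (2168 ± 146), Loxl3 (1222 ± 70.8) and Loxl4 (308 ± 20.5). No neighbours in this order overlapped in any library. Among 13828 tested genes with a length, Lox ranked 273rd, Loxl2 385th, Loxl1 654th, Loxl3 1210th and Loxl4 4442nd in Rnf40+/+ MEFs. The MEFs therefore had mRNA of every member, with Lox and Loxl2 among their more abundant transcripts.

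In Rnf40-/- MEFs the first 3 places were the same, with 4312 ± 169 for Lox, 2179 ± 54.2 for Loxl2 and 1027 ± 59.5 for Loxl1 (normalized counts per kilobase, SD, n = 3). The last places were exchanged, as Loxl4 (386 ± 30.9) was above Loxl3 (299 ± 2.63). Lox kept its rank at 274th, whereas Loxl2 moved to 595th, Loxl1 to 1401st and Loxl3 to 4443rd, and Loxl4 moved up to 3613th. The exchange depended on the row Lor2. With Lor2 added, Loxl3 was at 410, 416 and 418 normalized counts per kilobase in the 3 Rnf40-/- libraries, and Loxl4 was at 384, 417 and 355, so that the 2 genes overlapped. Adding up all members, the family had 12117 ± 441 normalized counts per kilobase in Rnf40+/+ and 8202 ± 194 in Rnf40-/- MEFs (SD, n = 3 each). Thus 67.7% of the total was left, with no overlap between genotypes (exact permutation test, two-sided p = 0.1, the smallest this design allows).

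The make-up of the family therefore differed between the libraries of the 2 genotypes. These shares do not depend on the size factor of a library, because they compare genes within it. Lox made up 38.3%, 40.9% and 38.0% of the reads per kilobase of the family in Rnf40+/+ and 52.6%, 53.3% and 51.7% in Rnf40-/- libraries. Its share was thus higher by 13.5 percentage points, although its own level was not called as changed. Loxl3 made up 9.77%, 9.86% and 10.6% in Rnf40+/+ and 3.61%, 3.56% and 3.77% in Rnf40-/- libraries. The share of Loxl1 was 17.9% ± 1.83 and 12.5% ± 1.02, that of Loxl2 was 30.4% ± 0.565 and 26.6% ± 0.128, and that of Loxl4 was 2.54% ± 0.172 and 4.70% ± 0.265 (SD, n = 3 each). For every member the shares of the genotypes did not overlap. Each exact permutation test gave the smallest two-sided p possible here, 0.1, which does not pass the threshold. The shares of a library add up to the whole, so those of the 5 members are not separate observations. How often shares within other gene families do not overlap was not computed. The levels of single genes did not overlap for 56.5% of all genes tested.

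**Figure D3:**
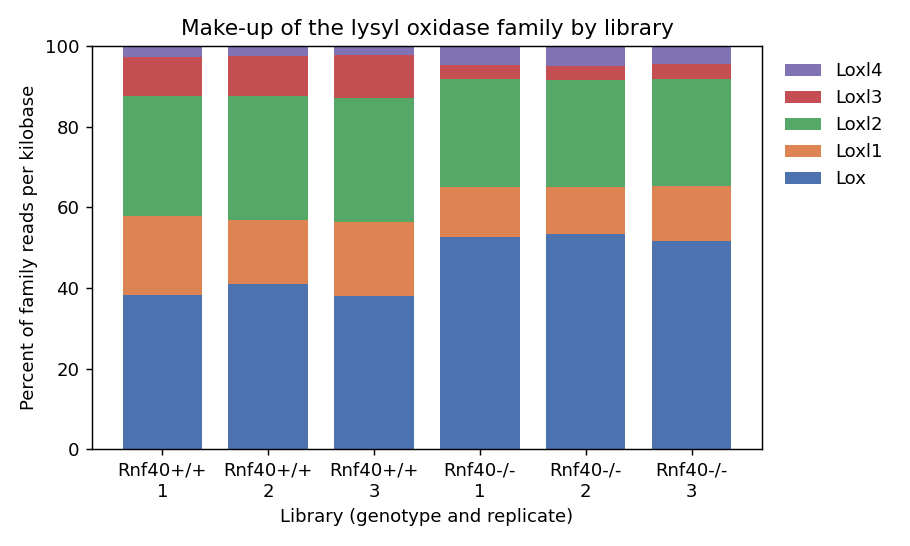
Percent of the summed reads per kilobase of the lysyl oxidase family that each member takes in each of the 6 libraries, with the 3 Rnf40+/+ libraries on the left and the 3 Rnf40-/- libraries on the right. Lox takes 38.0% to 40.9% on the left and 51.7% to 53.3% on the right, and the band of Loxl3 narrows from about 10.1% to 3.65% on average.

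Ratios between members within a library showed how unequal the changes were. The log2 ratio of Lox to Loxl3 per kilobase was 1.97, 2.05 and 1.84 in Rnf40+/+ and 3.86, 3.91 and 3.78 in Rnf40-/- libraries. The log2 ratio of Loxl3 to Loxl4 per kilobase went from 1.85, 1.94 and 2.17 to -0.37, -0.48 and -0.24, the widest change of any pair at -2.35. The row Lor2 is left out of these ratios, and the change of sign depended on that. With Lor2 added, Loxl3 was at 410, 416 and 418 normalized counts per kilobase in Rnf40-/- libraries, against 384, 417 and 355 for Loxl4. By comparison, the log2 ratio of Loxl1 to Loxl2 changed by -0.32, the least of any pair. Its libraries were at -0.61, -0.95 and -0.74 in Rnf40+/+ and at -1.11, -1.19 and -0.96 in Rnf40-/-. All 10 pairs had ratios that did not overlap between genotypes. For Loxl1 to Loxl2 the margin was narrow, with -0.948 in Rnf40+/+ replicate 2 against -0.956 in Rnf40-/- replicate 3. The exact permutation p was 0.1 for each of the 10 pairs, the smallest possible here, and so also after Benjamini-Hochberg adjustment over them. The pairs were made from the same 5 genes and are not separate observations. The share of non-overlapping ratios among pairs of all genes was not computed.

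The genes with the most similar profiles were found by the root mean square difference of log2 values over the 6 libraries, each gene set relative to its Rnf40+/+ mean, among 11548 other genes with a mean of at least 100 normalized counts. For Loxl3 these were Lor2 (0.05), Csrp1 (0.08), a LIM domain protein gene of smooth muscle and fibroblasts, and the transcript AK188772 (0.10). Csrp1 went from 8429 to 1998 normalized counts on average. For Loxl1 they were Dnajb5, Plekhf1 and Mms22l, with differences from 0.03 to 0.05. For Loxl2 they were 1810014B01Rik, Nisch and Tnks1bp1 (0.02 to 0.03). For Lox they were A830080D01Rik, Dcun1d3 and Epb4.1l3, and for Loxl4 they were Akr1b10, AK029792 and BC055806, at differences of 0.01 to 0.02. A small difference describes like profiles over these libraries and nothing beyond that.

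The genes that lysyl oxidases act on, or that prepare and regulate them, were examined in 8 lists with 60 genes in all, which were chosen with earlier results of these data known, so their counts are a description. Of these, 57 were tested, and 44 were lower and 5 higher in Rnf40-/- MEFs, against 24.1% and 23.3% of all genes tested. Their median on the log2 scale was -0.52, whereas the median of all genes tested was -0.0035.

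**Figure D4:**
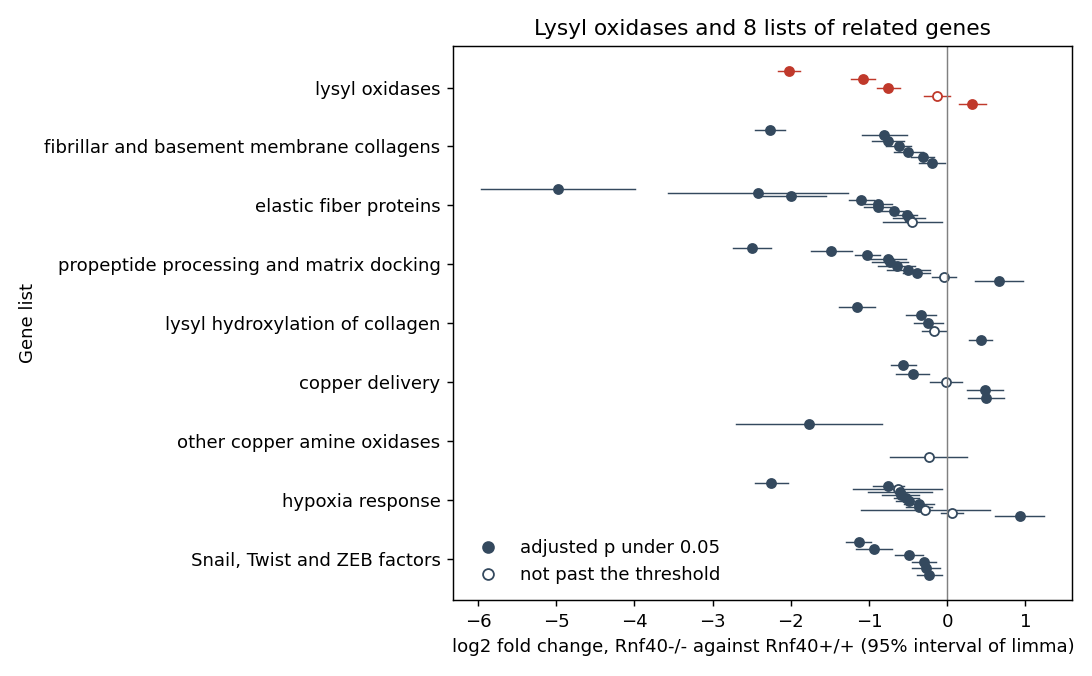
Log2 fold change between Rnf40-/- and Rnf40+/+ MEFs of the 5 lysyl oxidase genes (red) and of the 57 tested genes of 8 related lists (dark), 1 point per gene with the 95% interval of limma, filled when the adjusted p was under 0.05. Most points of the collagen, elastic fiber and matrix docking lists lie left of 0, as do Loxl1, Loxl2 and Loxl3, and the copper delivery list is spread around 0.

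The list of collagens, which are substrates of the family, held 7 chains of types I, III, IV and V. All 7 were lower, with a median log2 fold change of -0.62. Col1a2, a chain of type I collagen, had 107178, 113121 and 128919 normalized counts in Rnf40+/+ and 24175, 23758 and 24565 in Rnf40-/- MEFs, a fall of similar size to that of Loxl3 (log2 fold change -2.26, SE 0.09, limma adjusted p = 7.63e-09). Its partner chain Col1a1 fell by 0.80 on the log2 scale, and by 0.63 without Rnf40+/+ replicate 3. The log2 fold changes of the type IV collagen chains Col4a1 and Col4a2 were -0.62 and -0.32, and those of the fibrillar chains Col3a1 and Col5a1 were -0.75 and -0.50. The smallest fall was that of Col5a2 (-0.20, limma adjusted p = 0.0475), which was no longer past the threshold without any 1 of the libraries, at adjusted p values from 0.0501 without Rnf40+/+ replicate 3 to 0.193 without Rnf40-/- replicate 1.

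The proteins of elastic fibers, on which LOX and LOXL1 act, showed the lowest median of the lists of matrix proteins, at -0.89, with 9 of 10 genes lower. Eln, the gene of elastin, had 227, 328 and 843 normalized counts in Rnf40+/+ and 11.2, 20.9 and 6.61 in Rnf40-/- MEFs. Its level was low in both genotypes beside that of the collagens and near the limit of detection in Rnf40-/-, and its log2 fold change was -4.98 (SE 0.45, limma adjusted p = 3.62e-06), or -4.43 without Rnf40+/+ replicate 3. Fbln5 (fibulin-5) and Efemp2 (fibulin-4), which bring LOXL1 and LOX to the fiber, both fell by 0.89 on the log2 scale. The log2 fold change was -1.10 for Emilin1 and -2.00 for Mfap2, both genes of proteins of elastic microfibrils, and -0.52 for Fbn1 (fibrillin-1). Mfap2 was at -1.68 without Rnf40+/+ replicate 3. It was -0.67 for Mfap5 and -0.48 for Ltbp4. Mfap4 had 296, 317 and 1917 normalized counts in Rnf40+/+ and 108, 121 and 87.8 in Rnf40-/- MEFs. A single library, Rnf40+/+ replicate 3, was far above the others, so that its log2 fold change of -2.42 became -1.54 without this library (limma adjusted p = 3.26e-06). The same library held the most Fbn2, which did not pass the test (-0.45, limma adjusted p = 0.0517). Fbn2 passed without Rnf40+/+ replicate 1 (-0.58, limma adjusted p = 0.0138) and without Rnf40+/+ replicate 2 (-0.58, limma adjusted p = 0.0391), and was at -0.18 without replicate 3. RefSeq lists mKIAA4226 as another name of Fbn2. The deposited data hold a row of that name, which was not added to these values.

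Among the genes for processing of the LOX propeptide and for docking at the matrix, 8 of 10 tested genes were lower and 1 was higher, with a median of -0.69. Bmp1, the main protease that releases the LOX propeptide, had 2521, 2627 and 2944 normalized counts in Rnf40+/+ and 2551, 2682 and 2588 in Rnf40-/- MEFs. The groups overlapped, and the log2 fold change of -0.05 did not pass the test (limma adjusted p = 0.62). It was 0.02 without Rnf40+/+ replicate 3. The related protease gene Tll1 fell by 1.02 on the log2 scale, while Tll2 had too few reads to be tested. Postn, the gene of periostin, which binds BMP1 and promotes the cleavage of LOX, had 22185, 23255 and 31575 normalized counts in Rnf40+/+ and 4454, 4804 and 4234 in Rnf40-/- MEFs. Its log2 fold change of -2.50 was the largest fall of this list (SE 0.11, limma adjusted p = 2.26e-08). Fn1 (fibronectin), a binding partner of LOX and the gene with a mean of 328300 normalized counts in Rnf40+/+, had a log2 fold change of -0.64. It was -0.76 for Thbs1 (thrombospondin-1), another matrix protein, and -1.48 for Fmod (fibromodulin), which binds LOX and collagen. Adamts14 and Adamts2, proteases that can cut LOX, had log2 fold changes of -0.73 and -0.50, and Adamts2 was at -0.33 without Rnf40+/+ replicate 3. Pcolce fell by 0.39. Its paralog Pcolce2, also an enhancer of procollagen processing, rose by 0.66 on the log2 scale (limma adjusted p = 0.00226).

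The hydroxylation of lysine, which decides the kind of cross-link that lysyl oxidases can form, showed a mixed picture. Of 5 genes tested, 3 were lower and 1 was higher, with a median of -0.24. Plod2, the hydroxylase of the telopeptide lysines, had 3095, 3201 and 2930 normalized counts in Rnf40+/+ and 3983, 4444 and 3982 in Rnf40-/- MEFs, a rise of 0.43 on the log2 scale (SE 0.07, limma adjusted p = 3.01e-04). All Rnf40-/- libraries were above all Rnf40+/+ libraries, as they were for Loxl4. By contrast Plod3, a further lysyl hydroxylase gene, was lower at -0.33 and Serpinh1, the gene of a collagen chaperone, at -1.15. Fkbp10 was at -0.17 (limma adjusted p = 0.0633) and passed without Rnf40-/- replicate 3 (-0.22, limma adjusted p = 0.0379). Plod1 was at -0.24 (limma adjusted p = 0.0351), and it remained past the threshold without Rnf40+/+ replicate 3 (-0.32, limma adjusted p = 0.00276) but not without any other library, with adjusted p values from 0.0531 without Rnf40-/- replicate 3 to 0.135 without Rnf40+/+ replicate 1.

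Copper delivery, on which the activity of the enzymes depends, was divided, with 2 genes lower, 2 higher and 1 not past the threshold (median -0.02). Atp7a, the pump that loads copper onto secreted enzymes, had 523, 698 and 583 normalized counts in Rnf40+/+ and 787, 914 and 807 in Rnf40-/- MEFs, and rose by 0.48 on the log2 scale (limma adjusted p = 0.00297). Slc31a2 rose by 0.50, whereas Slc31a1, the copper importer of the plasma membrane, had a log2 fold change of -0.56 and Commd1, a gene of copper homeostasis, one of -0.44. The copper chaperone Atox1 was at -0.02 (limma adjusted p = 0.905), and at 0.07 without Rnf40+/+ replicate 3 and 0.06 without Rnf40-/- replicate 2. Atp7b had too few reads to be tested. Other copper amine oxidases, which are not related to the family in sequence, were scarce. Aoc3 had 19.1, 46.9 and 31.1 normalized counts in Rnf40+/+ and 12.2, 5.22 and 8.50 in Rnf40-/- MEFs (log2 fold change -1.77, limma adjusted p = 0.00501). Aoc2 was at -0.24 and did not pass, and it was at -0.13 without Rnf40+/+ replicate 3. Aoc1, listed as Abp1, had too few reads to be tested.

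Lox, Loxl2 and Loxl4 are known targets of the hypoxia-inducible factors. In the list of 12 hypoxia response genes, 8 were lower, 1 was higher and 3 did not pass, with a median of -0.51. The largest fall of the list was that of Vegfa, an angiogenic growth factor gene, at -2.25 on the log2 scale (limma adjusted p = 1.66e-08). The value was -0.75 for Adm, a vasodilator peptide gene, -0.36 for the glucose transporter gene Slc2a1, and -0.59, -0.52 and -0.49 for Pdk1, Ldha and Pgk1 of glucose metabolism. It was -0.35 for Bnip3, a gene of mitochondrial turnover. Ndrg1, a stress-responsive gene, rose by 0.93 (limma adjusted p = 2.53e-04), and by 1.12 without Rnf40+/+ replicate 3. P4ha1, a collagen prolyl hydroxylase gene, was at 0.06, and at 0.04 without Rnf40+/+ replicate 3. Car9, a carbonic anhydrase gene, was at -0.28, and at 0.08 without Rnf40-/- replicate 3. Egln3 was at -0.60 (limma adjusted p = 0.0196) and was not past the threshold without Rnf40+/+ replicate 2 (limma adjusted p = 0.058), Rnf40-/- replicate 1 (limma adjusted p = 0.0762) or Rnf40-/- replicate 2 (limma adjusted p = 0.0744). Ankrd37, at -0.63, passed without Rnf40+/+ replicate 1 (-0.77, limma adjusted p = 0.0394). Vegfa thus fell by somewhat more than Loxl3 (-2.03), which is not among the 3 targets named above. Of those 3, Loxl2 fell, Loxl4 rose and Lox did not pass the test. Whether hypoxia signalling had a part in any of these changes was not tested.

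LOXL2 and LOXL3 are known to associate with SNAI1, and Twist and ZEB factors act beside it in mesenchymal cells. The 6 genes of this list were all lower, with a median of -0.40. Snai2 had 1658, 1773 and 1568 normalized counts in Rnf40+/+ and 761, 765 and 749 in Rnf40-/- MEFs, a log2 fold change of -1.13 (SE 0.07, limma adjusted p = 2.17e-07), close to that of Loxl1. The log2 fold change was -0.94 for Snai1, -0.49 for Twist2 and -0.30 for Zeb1. The falls of Zeb2 (-0.28) and Twist1 (-0.23) were small. Zeb2 was not past the threshold without Rnf40+/+ replicate 1 (limma adjusted p = 0.0535), Rnf40+/+ replicate 2 (limma adjusted p = 0.057) or Rnf40-/- replicate 3 (limma adjusted p = 0.0563). Twist1 was not past it without Rnf40-/- replicate 1 (limma adjusted p = 0.0596) or Rnf40-/- replicate 3 (limma adjusted p = 0.0875).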

How the data were processed

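RNA-seq of 3 Rnf40+/+ and 3 Rnf40-/- libraries was analysed from the deposited table. The authors aligned to the mm9 transcriptome and used DESeq for normalization, so the deposited signal gives reads over the size factor of each library. The submitters' processing notes name Bowtie2 (version 2.1.0) and DESeq (version 1.14.0). The reads were recovered from the smallest step of each library, and 100% of positive values came out whole (tolerance 0.001 reads).

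Genes with few reads were removed by filterByExpr (edgeR, version 4.0.16). The main test was limma (version 3.58.1, with trend) with genotype as the single factor, fitted to log2(normalized count + 1), with Benjamini-Hochberg adjustment over 16378 genes. The added 1 understates changes of genes with few reads. Shares and ratios were tested by exact permutation (scipy version 1.17.1). Lengths and positions came from the GENCODE annotation of mm9, which matched 20929 of 29955 symbols. Aoc1 and Adgre1 were taken from rows under their older names. Fbn2 and Col2a1 have rows of their own and also rows under other names, mKIAA4226 and Del1, which were not added.

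The rule that took the members used gene symbols and no expression values. The choice of this family and of the lists was made with earlier results of these data known. Named genes are the 5 members, Rnf40, genes overlapping a member, genes of the 8 lists and the 3 genes with the closest profile to each member. Alternatives were other normalizations, filters, pseudocounts and tests, a replicate block and each library left out. The limma, edgeR and DESeq2 fits with genotype as the single factor were first tested on simulated data with a fixed dispersion. The other alternatives and the permutation tests were not simulated. The sum of Loxl3 and Lor2 was an alternative chosen after seeing the data.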

Additional observations from a re-analysis of the deposited data

How the results depend on the processing

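The log2 fold changes of the 5 lysyl oxidase genes kept their direction and their side of the threshold under all 16 other settings tried on every gene: -0.17 to -0.07 for Lox, -1.13 to -1.03 for Loxl1, -0.80 to -0.71 for Loxl2, -2.08 to -1.98 for Loxl3 and 0.26 to 0.38 for Loxl4. Lox was not past the threshold in any of them (adjusted p from 0.109 to 0.389). DESeq2 size factors gave the same values as the main fit, as the deposited values were already normalized with DESeq. The other gene filters could change the adjusted p of limma but not the log2 fold changes. The numbers of related genes were 5 higher and 40 to 45 lower, and those of all genes were 3051 to 4299 higher and 3342 to 4196 lower. Upper-quartile factors shifted the median gene by 0.05 on the log2 scale. With them the genes called were 4299 higher and 3536 lower, against 3809 and 3955.

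As shares of the family, the difference between genotypes for Loxl2 became -4.74 percentage points that for Loxl4 1.78 and that for Loxl1 -4.16 when reads were not divided by length, instead of -3.80, 2.15 and -5.39. With Lor2 added to Loxl3, that for Loxl2 became -3.07 and that for Loxl3 -8.36, instead of -6.44. These follow from the sums that the shares are taken of. Among the 57 related genes, 871 of 910 values kept their direction and call, and reversals were seen for genes that were not called. Calls were lost with upper-quartile factors for Col5a2, Plod1 and Twist1 (limma adjusted p of 0.116, 0.0901 and 0.0564). Col5a2 also lost its call without a gene filter (0.0858), with at least 10 reads in every library (0.0607), with 10 added before the logarithm (0.0606) and with a replicate block (0.103). Fbn2 passed with edgeR (0.0488), with at least 10 reads (0.0495) and with the block (0.0117). With upper-quartile factors Atox1 was at 0.033 and Bmp1 at 0.00198. When libraries were left out, Atox1 ranged from -0.089 to 0.066, Bmp1 from -0.093 to 0.018 and Car9 from -0.53 to 0.082.

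The deviations of same-numbered libraries correlated at 0.035, 0.003 and 0.061, against -0.095 to 0.063 for libraries of other numbers. With 3 libraries in each group this cannot decide whether the replicate numbers pair the libraries. With a replicate block, 4021 genes were higher and 4196 lower, and the log2 fold changes of the members were the same by construction. The depth limits only genes with few reads, such as Tll2 and Atp7b, and not the members.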
